A study of Homo sapiens with 38 samples.

Results

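TFCP2L1, TFAP2C, TBX3, SPIC, ESRRB and ARGFX are 6 transcription factors that have been linked to the naive state of pluripotent stem cells. They were taken by name, as the rows of the count table with these symbols, and the list of names was drawn up with earlier results of these data known. They are 6 of the 57133 genes listed, and all 6 were among the 16674 genes that passed the filter on low counts. SPIC passed it only through the naive libraries and ESRRB only through differentiating libraries, so for both genes the filter itself favoured a difference. The data show how far the 6 transcripts were lost, or were not lost, when naive cells left their medium. SPIC was lost almost completely. TBX3 also fell by day 2 but by day 8 of N2B27 stood at 112.9 and 148.5 CPM (counts per 1000000), where naive libraries held 68.3 to 136.6 CPM. TFCP2L1 declined more slowly. TFAP2C was lowest at day 2 and was called in no comparison with naive cells. The label of a naive factor did not hold for the mRNA of ESRRB, which was near 0 in naive cells, and ARGFX was present at only a few counts per library.

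Naive pluripotent stem cells resemble the epiblast of the blastocyst before implantation. A network of transcription factors sustains this state while inhibitors block the signals that drive differentiation, and when the inhibitors are withdrawn the cells pass through a formative phase towards the primed state, a process called capacitation. TFCP2L1 belongs to the CP2 and Grainyhead family and acts downstream of LIF and STAT3 in mouse embryonic stem cells, where ESRRB, an orphan nuclear receptor related to the oestrogen receptors, is another core factor. TFAP2C is an AP-2 factor that holds enhancers open in human naive cells, and AP-2 factors also act in trophoblast and germ cells. TBX3 is a T-box repressor found in naive cells and again in developing endoderm, mesoderm and limb. SPIC is an ETS factor closely related to PU.1, and ARGFX is a PRD-like homeobox gene of the kind that is active in the early human embryo.

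The 38 libraries were made from Shef6, an established human embryonic stem cell line that had been reset to the naive state and adapted to growth without feeder cells on a coating of fetal bovine serum, so they describe 1 line. Every naive library came from cells in PXGL, a medium that combines inhibitors of MEK, tankyrase (XAV939) and protein kinase C with LIF. In the first experiment (Ex1) naive cells were kept on serum coating (n = 2) or on Geltrex (n = 2), and cells were plated on Geltrex into unsupplemented N2B27, into E8 or into mTeSR, the latter 2 of which contain FGF and a ligand of the Activin or TGF-beta type. N2B27 and E8 cultures were collected on days 2, 3, 4, 6 and 8 and mTeSR cultures on the last 3 of these days, with n = 2 at each point. In the second experiment (Ex2) naive cells on Geltrex, N2B27, N2B27 with XAV, and N2B27 with FGF2, XAV and Activin A (FAX) were sampled with n = 2 each, the differentiating groups at day 4. The cells were seeded with ROCK inhibitor for the first day. The Ex2 naive libraries are labelled day 0, although their library names carry day 4, and they are used here as naive cells only. All naive library names read PXGLY, and those on serum also GelFBS. The labels do not explain these added letters, so a further additive in naive culture cannot be told from them.

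Libraries were QuantSeq 3′ mRNA-seq, in which each read is a tag of a transcript end, and held 3038046 to 5612354 counts. Levels are given as counts per 1000000 counts of the library (CPM), scaled by TMM, where 1 count was worth 0.17 to 0.35 CPM. A tag count does not depend on transcript length, so no correction for length was made. The sum of 5 naive markers (KLF17, DPPA5, DNMT3L, SUSD2 and KHDC1L) was 1420 to 1760 CPM in the 6 naive libraries. It was 397 to 474 CPM at day 8 of N2B27, 305 to 372 CPM in E8 and 314 to 351 CPM in mTeSR. The sum of 12 primed or formative markers was 400.1 to 558 CPM in naive cells and 1386 to 1493 CPM at day 8 of the 3 media. The study calls its replicates technical in some places and biological in another, so p-values here measure the spread between these libraries, which may be technical. In bulk RNA, fewer cells that express a gene and less RNA per cell cannot be told apart.

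The promoters of SPIC and TFCP2L1 are shown because these were the 2 members that were lower than naive in all 3 media at every sampled day from day 4, and they differ in base composition. Each sequence is the 250 bases upstream of the RefSeq start on GRCh38.p14, written 5′ to 3′ on the gene's strand, and capitals mark the matches to the motifs named below.
SPIC: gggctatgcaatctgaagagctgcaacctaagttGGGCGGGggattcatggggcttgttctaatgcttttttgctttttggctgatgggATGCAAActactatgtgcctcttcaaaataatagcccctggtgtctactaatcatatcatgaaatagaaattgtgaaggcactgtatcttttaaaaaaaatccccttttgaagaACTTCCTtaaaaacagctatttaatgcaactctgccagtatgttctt
TFCP2L1: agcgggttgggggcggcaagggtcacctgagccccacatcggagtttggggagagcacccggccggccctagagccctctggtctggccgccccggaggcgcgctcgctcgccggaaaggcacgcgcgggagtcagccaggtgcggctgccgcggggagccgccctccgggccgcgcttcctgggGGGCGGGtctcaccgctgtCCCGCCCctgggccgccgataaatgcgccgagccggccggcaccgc
The SPIC window (chr12:101475086-101475335, plus strand) was 39.2% G and C with 1 CpG, and 11.4% of the 35116 windows of this length had a lower share of G and C. The TFCP2L1 window (chr2:121285203-121285452, minus strand) was 76.8% G and C with 32 CpG, and 92.5% of windows were lower. The median window held 58.0% G and C and 11 CpG. Of 8 motifs searched on both strands, the SPIC window held GGGCGGG (SP and KLF factors, 216 bases before the start at its first base, in 31.5% of all windows), ATGCAAA (part of the octamer, at -161, in 3.94%) and AGGAAGT (ETS factors, on the minus strand at -47, in 7.01%). The TFCP2L1 window held GGGCGGG at -65 and, on the minus strand, at -46. No match overlapped another. The other motifs were GCCNNNGGC (TFAP2, in 19.8% of windows), GGTGTGA (T-box, 2.76%), AAGGTCA (ESRR, 3.44%), TTCNNNGAA (STAT, 6.57%) and TAATCC (PRD-like homeobox, 5.62%), and neither window held one of them. A match is a string of letters and was not measured as a binding site. ESRRB had 3 listed starts, of which 1 held a single match, TTCNNNGAA. TFAP2C, TBX3 and ARGFX had no window.

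Tested against the 6 naive libraries, SPIC was lower in all 15 combinations of medium and day, TBX3 in 11 and TFCP2L1 in 9. ESRRB was higher in 11, ARGFX was lower in 8 and higher in 2, and TFAP2C was called in 0. A gene was called when its adjusted p was under 0.05 and its log2 fold change beyond 1 in either direction (edgeR quasi-likelihood test, Benjamini-Hochberg over 16674 genes). Of the 90 tests, 56 were calls, and 68 had an adjusted p under 0.05. SPIC and ESRRB passed the filter only through libraries where they were high, which favoured the direction in which they were called. In N2B27, 4, 3, 4, 4 and 4 of the 6 members were called at days 2, 3, 4, 6 and 8, where 16.2%, 15.6%, 18.4%, 23.1% and 23.9% of all genes tested were. In E8, 2, 4, 4, 4 and 4 members were called, beside 24.6%, 17.8%, 20.8%, 23.3% and 27.5% of all genes. In mTeSR, 4 were called at each of days 4, 6 and 8, beside 19.8%, 22.5% and 25.1%. At day 4 in XAV 4 were called, beside 17.0%, and in FAX 3, beside 17.1%. The 15 comparisons share their naive libraries and are not independent of each other.

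**Figure D1:**
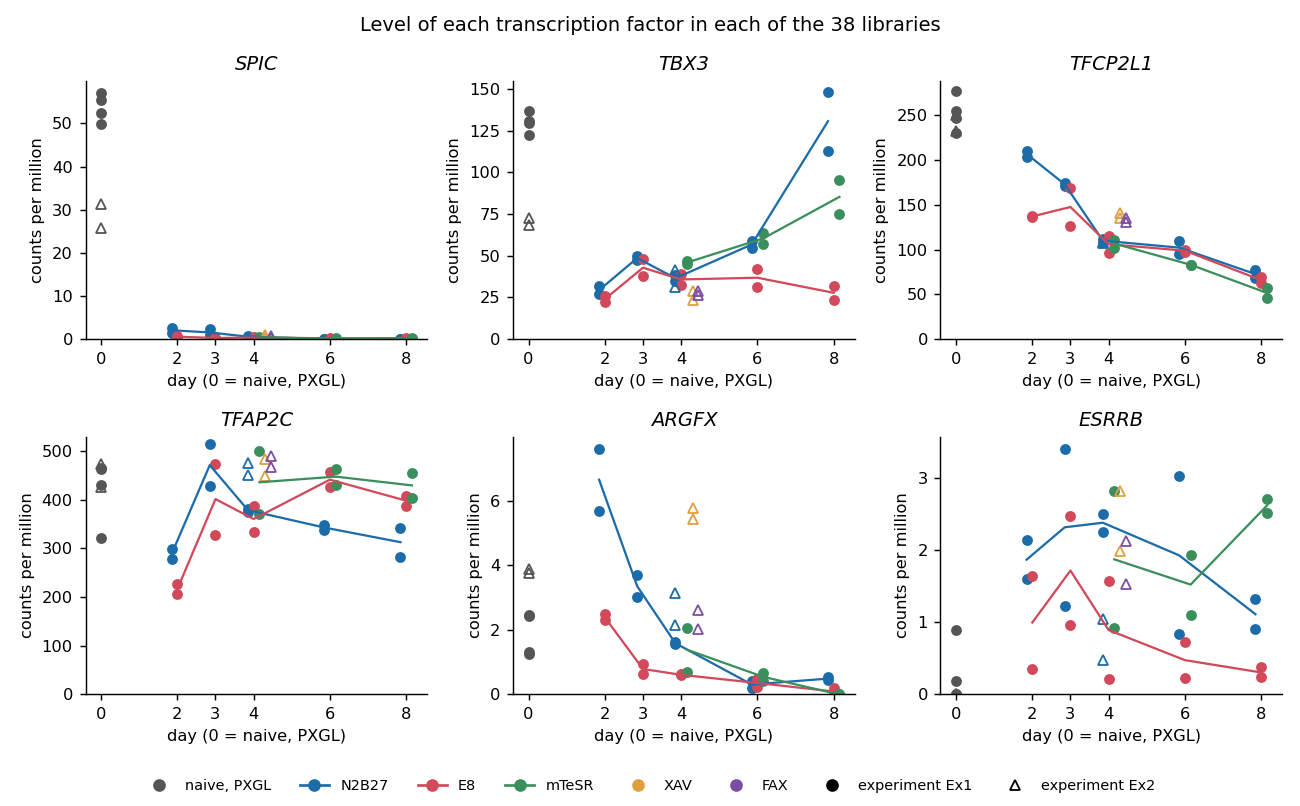
Level of each member in CPM (vertical axis, linear) against days of differentiation, where day 0 is naive PXGL. Filled circles are Ex1 libraries and open triangles Ex2 libraries, and lines join the Ex1 means of each medium; TFCP2L1 stepped down to 46.15 to 76.9 CPM by day 8, TFAP2C was lowest at day 2, TBX3 at day 8 was 112.9 and 148.5 CPM in N2B27 but 23.6 and 31.8 CPM in E8, and SPIC left its naive range by day 2.

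SPIC showed the deepest loss, and like TBX3 it was already lower at day 2, the first day sampled. In naive cells it had 237 and 261 counts on serum and 247 and 277 on Geltrex in Ex1, and 92 and 93 counts in Ex2, a level of 45.3 ± 13.3 CPM (SD, n = 6). All 32 differentiating libraries lay below the lowest naive library (25.7 CPM), the highest of them at 2.60 CPM. At day 2 of N2B27 it had 13 and 6 counts, and at day 3, 9 and 4. These sums were 22.8-fold lower than naive (95% exact counting interval 14.6 to 38.1) and 32.8-fold lower (19.1 to 61.8). Both days were called lower in the fit to all libraries (quasi-likelihood test, adjusted p = 1.27e-10 and 3.25e-11). The 4 N2B27 libraries of day 4 held 9 counts together, 101-fold below naive (53.3 to 222).

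From day 6 no SPIC count was left in N2B27. With a floor of 3 counts over the group, SPIC was at least 153-fold lower than naive at day 6 and at least 158-fold lower at day 8. In E8 the pairs of libraries already held only 3, 2, 3, 1 and 1 counts from day 2 to day 8, and in mTeSR 3, 1 and 1 from day 4. The 3 counts of E8 day 2 gave a level 92.2-fold below naive with a wide interval (31.5 to 448), so the remainder was close to what these libraries could resolve. E8 was below N2B27 at day 2 by 1.95 on the log2 scale (adjusted p = 0.0748) and at day 3 by 2.56 (adjusted p = 0.0627), neither of which passed. In XAV and FAX at day 4 SPIC had 5 and 4 counts, 94.1-fold (40.2 to 290) and 95.9-fold (37.4 to 353) below naive. Intervals from counts cover counting error only.

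Naive SPIC differed between the experiments. It was 53.7 ± 3.12 CPM in the 4 naive libraries of Ex1, and 31.4 and 25.7 CPM in Ex2. Ex2 was lower than the Ex1 Geltrex libraries by 0.89 on the log2 scale (adjusted p = 0.00885), short of the fold threshold. Without Ex2 replicate 1 it was lower by 1.03, a call (adjusted p = 0.0328), and without Ex2 replicate 2 by 0.76 (adjusted p = 0.119). Set against the naive libraries of their own experiment, the XAV and FAX libraries were still lower by 5.75 and 5.78 on the log2 scale. All 15 SPIC calls were kept under every alternative tried, although passing the filter through naive libraries alone favoured this direction.

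TFCP2L1 declined in steps. Naive libraries held 254.5 and 276.9 CPM on serum, 246.7 and 230.0 CPM on Geltrex, and 232.5 and 251.0 CPM in Ex2, and all 32 differentiating libraries were below this range. In N2B27 the level was 210.1 and 203.8 CPM at day 2, 171.3 and 174.6 at day 3, 111.8 and 108.0 at day 4 in Ex1, 94.8 and 109.4 at day 6, and 76.9 and 68.1 at day 8. The replicates of days 2, 3 and 4 did not overlap between days, and neither did those of days 6 and 8, while days 4 and 6 did. Of the naive mean, 83.3% was left at day 2, 69.6% at day 3, 44.2% in the Ex1 libraries of day 4, 41.1% at day 6 and 29.2% at day 8.

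In E8 TFCP2L1 was lower than in N2B27 at day 2, and the later differences did not pass. At day 2 E8 held 136.6 and 137.5 CPM, 55.1% of naive, which was lower than N2B27 by 0.60 on the log2 scale (SE 0.117, adjusted p = 9.61e-04) and under the fold threshold. At day 3 E8 held 125.8 and 169.3 CPM, 59.3% of naive, and both libraries were below those of N2B27, but the difference of -0.23 (95% interval -0.46 to 0.01, adjusted p = 0.266) did not pass. By days 4, 6 and 8 the E8 pairs (96.5 and 115.4, 99.98 and 97.4, 62.6 and 69.0 CPM) differed from N2B27 by -0.05, -0.05 and -0.14 on the log2 scale, with 95% intervals from -0.39 to 0.19 over the 3 days. mTeSR went lowest, at 46.15 and 56.8 CPM on day 8, or 20.7% of naive. There it was below N2B27 by 0.49 (adjusted p = 0.0118, short of the fold threshold), and the difference from E8 was -0.35 (adjusted p = 0.0713).

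TFCP2L1 was called lower than naive at days 4, 6 and 8 of all 3 media, from -1.19 in N2B27 at day 4 (SE 0.083, adjusted p = 6.11e-14) to -2.27 in mTeSR at day 8 (SE 0.121, adjusted p = 4.13e-17). Days 2 and 3 fell short of the fold threshold in both N2B27 (-0.26 and -0.52) and E8 (-0.86 and -0.75), although each had an adjusted p under 0.05. These 9 calls were kept under every alternative. In Ex2 at day 4, XAV left 135.6 and 140.8 CPM and FAX 135.8 and 130.6 CPM, while N2B27 left 107.6 and 108.0 CPM. The XAV and FAX libraries did not overlap those of N2B27, but the differences of 0.36 (adjusted p = 0.176) and 0.30 (adjusted p = 0.367) did not pass.

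TBX3 fell early and then went different ways in the media. Naive TBX3 was 136.6 and 131.0 CPM on serum and 129.7 and 122.7 CPM on Geltrex in Ex1, and 72.4 and 68.3 CPM in Ex2. At day 2 it was 27.01 and 31.6 CPM in N2B27 and 25.8 and 22.0 CPM in E8, a drop of 1.92 (SE 0.225, adjusted p = 3.02e-08) and 2.21 (SE 0.243, adjusted p = 5.63e-09) on the log2 scale. All 4 libraries of day 2 lay below the lowest naive library. At day 3 the pairs were higher again, 47.5 and 49.7 CPM in N2B27 and 47.9 and 37.6 CPM in E8, steps of 0.73 (adjusted p = 0.00705) and 0.83 (adjusted p = 0.00296) that were under the fold threshold, the second of which became a call without E8 day 3 replicate 2 (adjusted p = 0.00502).

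After day 4 TBX3 rose in N2B27, and by day 8 it stood highest in N2B27, lower in mTeSR and lowest in E8. In N2B27 it went from 38.1 and 34.8 CPM at day 4 to 59.0 and 54.4 CPM at day 6 and to 148.5 and 112.9 CPM at day 8. The last step was 1.20 on the log2 scale (SE 0.158, adjusted p = 6.61e-06) and became 0.99 without N2B27 day 8 replicate 1. In mTeSR it was 44.9 and 46.7 CPM at day 4, 57.1 and 63.6 CPM at day 6, and 95.6 and 75.0 CPM at day 8, steps that did not pass (adjusted p = 0.142 and 0.112). In E8 the pairs were 39.3 and 32.15, 31.4 and 42.1, and 23.6 and 31.8 CPM. The 3 pairs of day 8 were separate from one another.

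At day 8 TBX3 in E8 was 4.74-fold below N2B27 (log2 -2.25, SE 0.170, adjusted p = 2.42e-11), and mTeSR was 3.103-fold above E8 (log2 1.63, SE 0.175, adjusted p = 5.39e-08). mTeSR was below N2B27 by 0.61 (adjusted p = 0.00846), under the fold threshold. The course over days 2 to 8 differed between E8 and N2B27 (interaction test on 4 contrasts, adjusted p = 4.61e-07), a test that 11% of all genes passed. Against naive, TBX3 at day 8 of N2B27 was higher by 0.24 with a 95% interval of -0.14 to 0.62 (adjusted p = 0.317), and in mTeSR lower by 0.38 with an interval of -0.78 to 0.03 (adjusted p = 0.122). Against the Ex1 naive libraries alone these values were 0.01 (adjusted p = 0.976) and -0.61 (adjusted p = 4.34e-04).

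At day 8 the summed levels of markers of primitive endoderm, primitive streak, and trophectoderm and amnion were also highest in N2B27. Summed over 6 primitive endoderm genes (GATA4, GATA6, SOX17, PDGFRA, FOXA2 and HNF4A), the level was 8.12 to 13.0 CPM in naive libraries, 158 to 178 CPM at day 8 of N2B27, 85.6 to 88.0 CPM in mTeSR and 18.4 to 22.7 CPM in E8. All 6 were tested, and 5 were higher than naive at day 8 in each medium and 1 was lower in E8 and in mTeSR, where 16.9%, 18.2% and 16.9% of all genes were higher in N2B27, E8 and mTeSR and 9.24% and 8.20% were lower in the latter 2. None of the 6 was at 0 at day 8, but GATA4, GATA6 and SOX17 were at 0 in the Ex2 naive pair. Summed over 6 primitive streak genes (TBXT, MIXL1, EOMES, MESP1, GSC and LHX1), the level was 3.07 to 23.8 CPM in naive libraries, 346 to 454 CPM at day 8 of N2B27, 208 to 243 CPM in mTeSR and 47.8 to 49.9 CPM in E8, where MESP1 was at 0. For 11 trophectoderm and amnion genes the sums were 20.8 to 33.4, 116 to 142, 37.8 to 42.6 and 54.3 to 61.5 CPM in the same order, with VTCN1 at 0 in N2B27 and KRT7 at 0 in mTeSR. For the last 2 lists only sums are given here, and a sum can rest on few of its genes. The sums of the first 2 lists ordered the media at day 8 as TBX3 did. Their part in the TBX3 result was not tested.

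**Figure D2:**
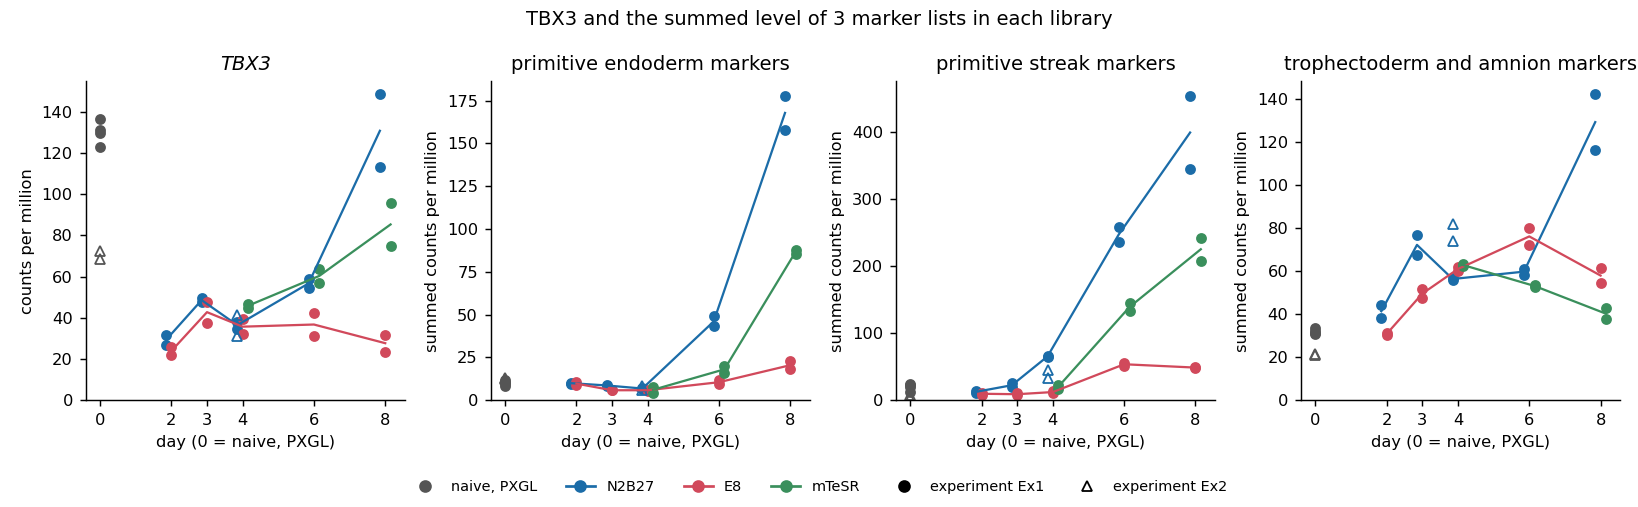
TBX3 in CPM and the summed CPM of the primitive endoderm, primitive streak, and trophectoderm and amnion markers in the same libraries, against days of differentiation. Each point is a library and lines join Ex1 means; at day 8 N2B27 is highest and E8 lowest for TBX3 and for the first 2 marker sums, with mTeSR between them.

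The naive level of TBX3 also depended on the experiment. Ex2 naive libraries were lower than the Ex1 Geltrex libraries by 0.84 on the log2 scale (SE 0.160, adjusted p = 4.19e-04), under the fold threshold, while N2B27 at day 4 was 38.1 and 34.8 CPM in Ex1 and 31.0 and 41.15 CPM in Ex2. The loss by day 4 was therefore smaller within Ex2. It was 1.83 against the Ex1 naive libraries for the Ex1 pair, but 0.96 against the Ex2 naive libraries for the Ex2 pair (adjusted p = 4.58e-05), which is no longer past the fold threshold. The difference between these effects, with naive on Geltrex in both, was 0.83 (adjusted p = 0.0199), and 11.7% of all genes passed that test. With the naive libraries of their own experiment, TBX3 was also past the threshold at day 6 in N2B27 (-1.20) and mTeSR (-1.11), where the pooled values were -0.97 and -0.88. XAV held 28.8 and 23.1 CPM and FAX 26.5 and 28.9 CPM, 2.09 and 2.00 below all naive libraries and 1.44 and 1.34 below those of Ex2.

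**Figure D3:**
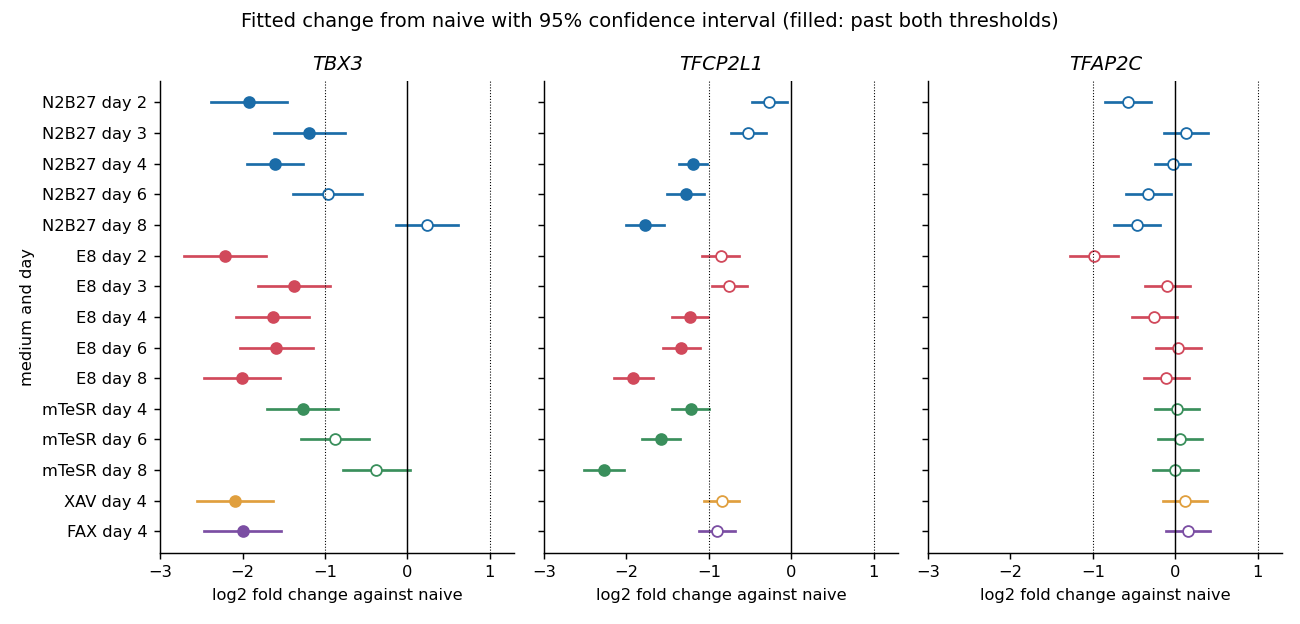
log2 fold change of TBX3, TFCP2L1 and TFAP2C (horizontal axes) against the 6 naive libraries, by medium and day, with 95% confidence intervals from the fit. Filled symbols are past both thresholds and dotted lines mark a log2 fold change of 1 in either direction; TBX3 is filled in 11 of 15 comparisons, TFCP2L1 in the 9 of days 4 to 8 in N2B27, E8 and mTeSR, and TFAP2C in 0.

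TFAP2C was the most abundant member, and none of its differences from naive was a call. Naive libraries held 321.4 and 430.1 CPM on serum, 463.2 and 464.7 on Geltrex, and 426.8 and 473.1 in Ex2. At day 2 TFAP2C was 297.9 and 279.3 CPM in N2B27, lower by 0.57 on the log2 scale (SE 0.138, adjusted p = 0.00151), and 226.1 and 207.1 CPM in E8, lower by 0.99 (SE 0.144, adjusted p = 1.18e-06). Both pairs were below all naive libraries. At day 3 it was back at 427.9 and 514.4 CPM in N2B27 and 328.4 and 474.4 CPM in E8, steps up of 0.71 (adjusted p = 0.00148) and 0.89 (adjusted p = 7.72e-05). The E8 step became a call on plain library totals (1.01) and without E8 day 3 replicate 1 (1.09). The E8 value at day 2 lay just inside the fold threshold. It became a call on plain library totals (-1.13), without a filter (-1.04), with the Ex1 Geltrex naive libraries alone (-1.06), without naive serum replicate 1 (-1.06) and without E8 day 2 replicate 1 (-1.03). DESeq2 and the other alternatives did not call it. Of the 15 tests of TFAP2C against naive 4 had an unadjusted p under 0.05, all of them also after adjustment.

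Of the 32 differentiating libraries, 21 were within the naive range of TFAP2C, 6 were above it and 5 below, and 4 of these 5 were the libraries of day 2. The lower end of that range was 1 library, naive serum replicate 1 at 321.4 CPM. Without it the naive range was 426.8 to 473.1 CPM, with 8 differentiating libraries within it, 6 above and 18 below, 14 of the 18 after day 2. With all 6 naive libraries the remaining library below the range was 1 of the pair at day 8 of N2B27 (342.6 and 283.1 CPM), where the fall was 0.46 (adjusted p = 0.00615). At day 8 E8 held 388.0 and 408.1 CPM and mTeSR 403.7 and 455.3 CPM. mTeSR exceeded N2B27 by 0.46 (adjusted p = 0.0324), below the fold threshold, and the difference between E8 and N2B27 was 0.35 with an interval of 0.06 to 0.64 (adjusted p = 0.0836). The course over days differed between E8 and N2B27 at an adjusted p of 0.0192, which rose to 0.0545 without E8 day 2 replicate 2. In XAV (447.9 and 483.7 CPM) and FAX (490.4 and 468.3 CPM) TFAP2C differed from N2B27 of the same experiment by 0.01 and 0.05, with intervals of -0.28 to 0.30 and -0.24 to 0.34.

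Germ cell markers, a lineage in which TFAP2C also acts, summed over 6 genes to 120.5 to 159 CPM in naive libraries, 185 to 187 CPM at day 8 of N2B27, 111 to 122 CPM in E8 and 194 to 208.5 CPM in mTeSR. The 6 were NANOS3, PRDM1, SOX17, DND1, KIT and DAZL, of which 5 were tested. At day 8 SOX17, which is also on the primitive endoderm list, was higher than naive in the 3 media, and PRDM1 was lower in E8 and mTeSR. NANOS3 was at 0 at day 8 in every medium and held 1 count over the 6 naive libraries. DAZL was at 0 in all 6 naive libraries and held 2 counts at day 8 of N2B27, 25 in E8, where it was called higher (adjusted p = 5.7e-07), and 1 in mTeSR. TFAP2A, the AP-2 paralogue of amnion and trophectoderm, is among the 11 genes of the sum given above. The part of these cells in the TFAP2C level was not tested.

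ESRRB was barely detected, and more often after naive culture than in it. The 6 naive libraries held 0, 0, 4, 1, 0 and 0 counts, with all 5 counts in the Ex1 Geltrex pair. Each of the 32 differentiating libraries held at least 1 count, and the highest held 17. In N2B27 the pairs were 8 and 9 counts at day 2, 5 and 17 at day 3, 13 and 14 at day 4 in Ex1 (4 and 2 in Ex2), 4 and 15 at day 6, and 6 and 5 at day 8. The replicates of days 3 and 6 were far apart. E8 held 1 and 5, 4 and 12, 1 and 8, 3 and 1, and 2 and 1 counts, and mTeSR 12 and 4, 5 and 9, and 10 and 9.

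ESRRB was called higher than naive in 11 comparisons, by 2.34 to 3.57 on the log2 scale, and not in E8 at days 2, 4, 6 and 8. Passing the filter only through differentiating libraries favoured this direction. At day 8 of mTeSR the summed counts were 13.4-fold above naive with a 95% exact counting interval of 4.85 to 46.0 (adjusted p = 6.12e-04 in the fit). The naive total behind it was 5 counts, 4 of them in naive Geltrex Ex1 replicate 1, and without that library the ratio was 55.5 with an interval of 8.82 to 2304. Against the 4 naive libraries of Ex1 it was 10.0 (3.61 to 34.3). Of the 11 calls only that one was kept under every alternative. With the Ex1 Geltrex pair as the naive level, the other 10 no longer passed, and 8 of them were lost when 1 library was left out. mTeSR exceeded E8 at day 8 by 2.96 (adjusted p = 0.0300), a call that was lost without any 1 of the 4 libraries involved. ESRRB lies in its chromosome 14 locus (76310712 to 76501837, plus strand), and the antisense lncRNA ENSG00000259124 (76495363 to 76726712) overlaps its 3′ end, where QuantSeq tags arise. That lncRNA was not analysed here, and whether the counting used strand is not given in the sources used here.

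ARGFX was briefly higher in N2B27 before it fell. Naive libraries held 11 and 6 counts on serum, 11 and 7 on Geltrex, and 11 and 14 in Ex2, or 2.52 ± 1.13 CPM (SD, n = 6). At day 2 of N2B27 it had 38 and 24 counts (7.60 and 5.70 CPM), both above all naive libraries and 2.88-fold higher by summed counts (1.98 to 4.17; log2 1.46, adjusted p = 0.00163). At day 3 it had 15 and 15 counts, at day 4 of Ex1 9 and 9, and at days 6 and 8 only 2 and 1, and 2 and 3. The step from day 4 to day 6 was -2.27 (adjusted p = 0.0257). The call at day 2 was lost without N2B27 day 2 replicate 1 (adjusted p = 0.0512), and that of the step without any 1 of its 4 libraries.

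E8 did not show the early ARGFX rise. Its pair of day 2 held 7 and 7 counts, 1.02 times naive (0.53 to 1.84), and was 1.48 below N2B27 on the log2 scale (SE 0.442, adjusted p = 0.0239). At day 3 it held 4 and 3 counts, 2.06 below N2B27 (SE 0.535, adjusted p = 0.0183). Each of these calls was lost in 3 of the 38 leave-outs, and under DESeq2 the first missed the threshold and the second had no adjusted p. The first was also lost in the fit to the 26 Ex1 libraries of the 3 media alone (adjusted p = 0.0581). The course of ARGFX over days, taken as change since day 2, did not pass between E8 and N2B27 (interaction test, adjusted p = 0.696). From E8 day 4 the pairs held 3 and 3, 2 and 1, and 1 and 0 counts. mTeSR held 3 and 9 counts at day 4, 3 and 2 at day 6, and 0 and 0 at day 8. With a floor of 3 counts over the group that was at least 5.66-fold below the 6 naive libraries, and at least 4.43-fold below the 4 of Ex1. The lower calls at days 6 and 8 of N2B27 and E8 and at day 8 of mTeSR were kept under every alternative.

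In XAV at day 4 ARGFX had 27 and 29 counts (5.43 and 5.78 CPM), in FAX 8 and 11, and in N2B27 of the same experiment 12 and 9. XAV was 1.21 above the 6 naive libraries (adjusted p = 0.00853), but the Ex2 naive pair was itself high, at 3.76 and 3.87 CPM. Against that pair alone the difference was 0.55 (adjusted p = 0.301), and the call was also lost without either XAV library. Against N2B27 the difference was 1.09 (adjusted p = 0.302). FAX against XAV was -1.258 on the log2 scale (adjusted p = 0.814). The near copies ARGFXP1 and ARGFXP2 held 1 count each over all libraries, beside 322 for ARGFX, and how tags shared by these genes were counted is not given in the sources used here.

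**Figure D4:**
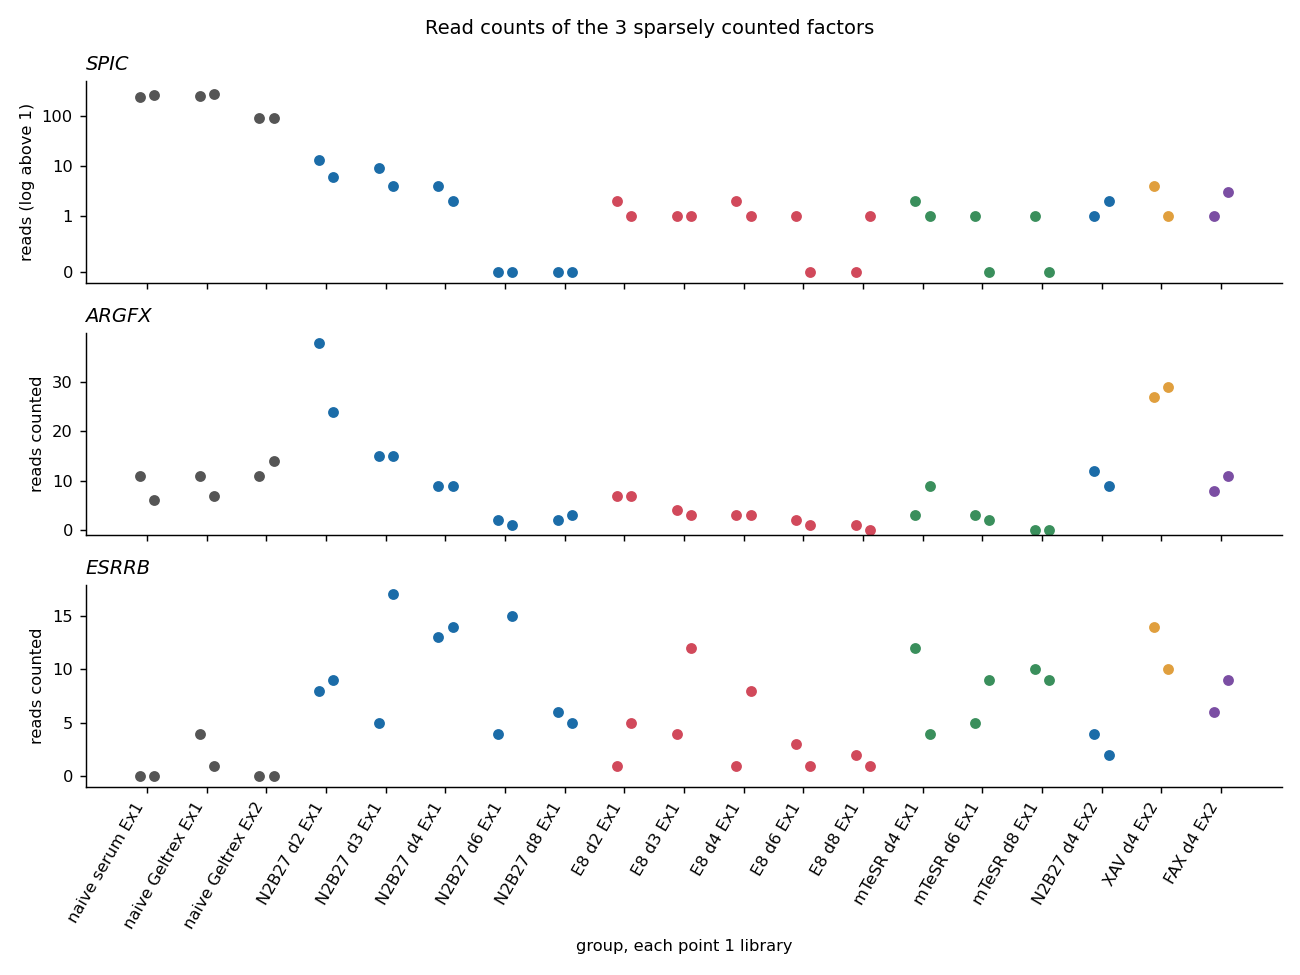
Reads counted per library for SPIC, ARGFX and ESRRB (vertical axes) in the 19 groups of medium, day and experiment (horizontal axis), each point 1 library. The SPIC axis is linear to 1 and logarithmic above it; SPIC falls from 92 to 277 reads to at most 13, ESRRB stays at 17 or fewer, and ARGFX peaks at 38 and 24 reads at day 2 of N2B27.

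Ordered by log2 fold change against naive, SPIC came first in all 15 comparisons and its interval was clear of the next member in 14, the exception being ARGFX at day 8 of mTeSR. ESRRB came last in all 15, a rank that rests on 5 naive counts. Its interval overlapped that of the member before it at days 2 and 8 of N2B27, at days 2, 6 and 8 of E8, and in XAV. At day 2 of N2B27 the order was SPIC (-4.46), TBX3 (-1.92), TFAP2C (-0.57), TFCP2L1 (-0.26), ARGFX (1.46) and ESRRB (3.08), and the intervals of TFAP2C and TFCP2L1 overlapped. TBX3 stood below TFCP2L1 in 11 comparisons, with separate intervals in 5, namely day 2 of N2B27 and E8, day 3 of N2B27, and XAV and FAX. TFCP2L1 stood below TBX3 in the other 4, at days 6 and 8 of N2B27 and mTeSR, with separate intervals in 3. By day 8 of E8 the order was SPIC, ARGFX (-4.21), TBX3 (-2.01), TFCP2L1 (-1.92), TFAP2C (-0.11) and ESRRB (0.61), and TBX3 and TFCP2L1 overlapped. TFCP2L1 was below TFAP2C with separate intervals in 13 comparisons, all but day 2 of N2B27 and E8. The fitted values of SPIC and ARGFX where no count was left depend on the fit and are no measure of depth.

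Between media at equal days 5 of 66 tests were calls, each described above. E8 against N2B27 called ARGFX at days 2 and 3 and TBX3 at day 8, beside 4.55%, 1.68% and 7.29% of all genes, and no member at days 4 and 6, beside 2.49% and 5.28%. mTeSR against N2B27 called none at days 4, 6 and 8, beside 1.58%, 2.62% and 3.80%. mTeSR against E8 called none at days 4 and 6, beside 0.0840% and 1.10%, and TBX3 and ESRRB at day 8, beside 5.31%. In the 7 comparisons without a call, 13 of 42 tests had an unadjusted p under 0.05 and 5 an adjusted one.

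Between consecutive days 2 of 60 tests were calls, ARGFX from day 4 to 6 of N2B27 (3.89% of all genes) and TBX3 from day 6 to 8 (1.43%). No member was called in N2B27 from day 2 to 3 (3.18%) or 3 to 4 (1.09%), in E8 from day 2 to 3 (7.56%), 3 to 4 (0.810%), 4 to 6 (2.51%) or 6 to 8 (0.804%), or in mTeSR from day 4 to 6 (2.91%) or 6 to 8 (0.978%). In these 8 steps 21 of 48 tests had an unadjusted p under 0.05 and 8 an adjusted one. TFCP2L1 made up 4 of the 8, with falls of 0.65 from day 3 to 4 in N2B27 (adjusted p = 9.59e-04), 0.48 from day 3 to 4 in E8 (0.0236), 0.59 from day 6 to 8 in E8 (0.00649) and 0.69 from day 6 to 8 in mTeSR (0.00185).

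Within Ex2 at day 4 edgeR called 0 members in XAV against N2B27 (0.570% of all genes), 0 in FAX against N2B27 (0.336%) and 0 in FAX against XAV (0.0120%). Of these 18 tests 6 had an unadjusted p under 0.05, and DESeq2 also called 0. XAV939 inhibits tankyrase and so WNT signalling, and is already part of PXGL. Coating and experiment gave 0 calls as well, for naive Geltrex against serum (0.0480% of all genes), naive Geltrex Ex2 against Ex1 (4.67%) and N2B27 day 4 Ex2 against Ex1 (1.01%). Among those 18 tests 7 had an unadjusted p under 0.05, 2 had an adjusted one (TBX3 and SPIC between the naive groups), and DESeq2 called 0. On Geltrex against serum TFAP2C was higher by 0.30 (adjusted p = 0.319), and TFCP2L1, TBX3, SPIC and ARGFX differed by -0.16 to -0.04. ESRRB had 4 and 1 counts on Geltrex and 0 and 0 on serum, which did not pass (adjusted p = 0.318), although the choice of the Geltrex pair as the naive level removed 10 of its 11 calls. Anything else that differed between the experiments cannot be told apart from the experiment.

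Of 29 genes of the same families as the members, 28 were in the count table and 16 passed the filter on low counts, so the other 12 were not tested. At day 2 of N2B27 3 were higher than naive and 2 lower, beside 9.86% and 6.30% of all genes, and at day 2 of E8 4 and 2, beside 13.9% and 10.7%. At day 8 of N2B27 11 were higher and 2 lower, beside 16.9% and 7.03% of all genes, with a median log2 fold change of 1.9 where that of all genes was -0.03. At day 8 of E8 9 were higher and 3 lower, beside 18.2% and 9.24% (median 1.36), and in mTeSR 9 and 3, beside 16.9% and 8.20% (median 1.32). At day 4 in XAV 5 were higher and 2 lower, where 17.0% of all genes were called in either direction, and in FAX 7 and 2, where 17.1% were. GRHL1, a Grainyhead factor of epithelia related to TFCP2L1, was the family member that fell most widely, from 68.5 ± 20.7 CPM in naive cells (n = 6) to 11.3 ± 0.182 CPM at day 8 of N2B27 (n = 2, log2 -2.60, adjusted p = 2.15e-10), and was lower in all 15 comparisons. GRHL2 was higher in 4. ESRRA, a regulator of mitochondrial genes, was the abundant member of the ESRR family, at 89.4 ± 9.23 CPM in naive cells, and was lower in 6 comparisons, by 1.52 at day 8 of N2B27 (adjusted p = 1.34e-08).

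SPIB, an ETS factor of lymphoid cells and of the same subfamily as SPIC, was higher where SPIC was lower, while SPI1, which encodes PU.1, was not tested. It was 2.06 ± 1.05 CPM in naive cells, 16.6 and 23.5 CPM at day 2 of N2B27 and 18.05 and 18.75 CPM at day 2 of E8, and 6.61 and 7.59 CPM at day 8 of N2B27. It was higher than naive in all 15 comparisons, as was TBX1, which went from 1.81 ± 0.459 CPM to 19.1 ± 0.553 CPM at day 8 of N2B27. TBX5 was higher in 13, TBXT in 12 and EOMES in 9. TBXT and EOMES, which direct mesoderm and endoderm formation, reached 63.0 ± 3.76 and 65.4 ± 12.8 CPM at day 8 of N2B27. In E8 they reached 15.45 ± 1.46 and 8.50 ± 0.631 CPM, so N2B27 stood above E8, as for TBX3.

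Among the PRD-like relatives of ARGFX, TPRX1 was higher in 12 comparisons. It was 4.89 ± 1.01 CPM in naive cells, 34.8 and 38.3 CPM at day 8 of N2B27, 15.3 and 17.6 CPM in E8, and 7.33 and 8.68 CPM in mTeSR. OTX2, a factor of primed cells and anterior neural tissue, was higher in 10 comparisons and reached 30.2 and 42.5 CPM at day 8 of N2B27. LEUTX, DPRX, DUXA, DUXB, OTX1 and CRX were not tested, and no group mean of an untested relative exceeded 2.05 CPM.

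**Figure D5:**
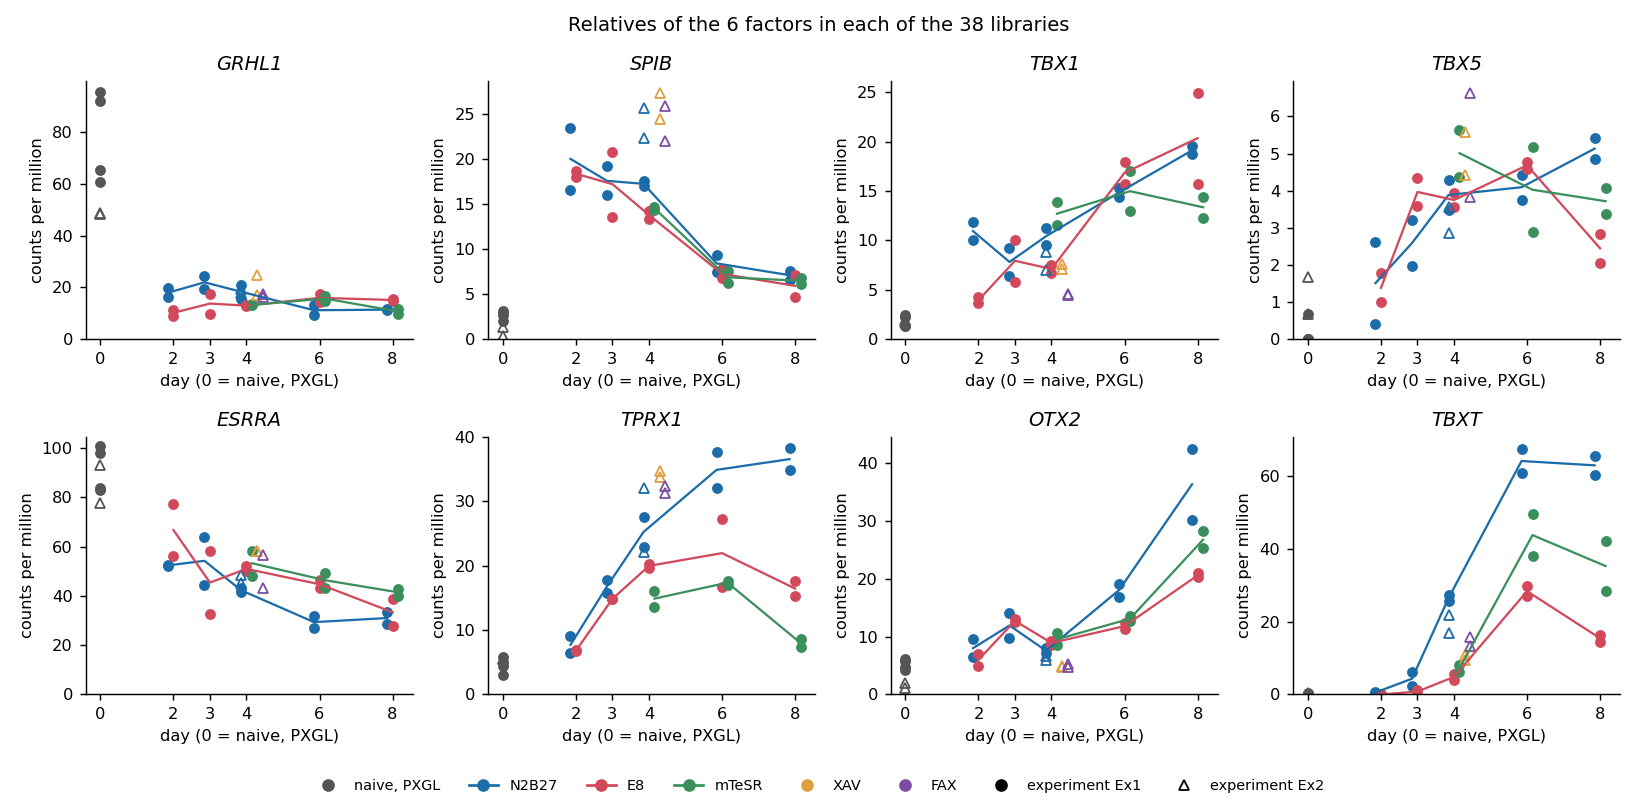
Level in CPM (vertical axis) of 8 relatives of the members against days of differentiation, with naive PXGL at day 0. Points are libraries and lines join Ex1 means; GRHL1 is low from day 2 and ESRRA is called lower from day 4 of N2B27, SPIB (16.6 to 23.5 CPM at day 2 of N2B27) and TBX1 are above naive from day 2, and TBX5, TPRX1, OTX2 and TBXT are not called higher before day 3.

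A list of 24 further genes of the pluripotency network, all of which passed the filter, had calls in both directions. At day 2 of N2B27 5 were higher and 4 lower, where 9.86% and 6.30% of all genes were, and in E8 4 and 7, where 13.9% and 10.7% were. At day 8 of N2B27 3 were higher and 11 lower (median log2 fold change -0.52), beside 16.9% and 7.03% of all genes. At day 8 of E8 3 were higher and 10 lower (median -0.53), beside 18.2% and 9.24%, and in mTeSR also 3 and 10 (median -0.41), beside 16.9% and 8.20%. ALPG, which encodes an alkaline phosphatase, was lower in all 15 comparisons, DNMT3L, a cofactor of DNA methylation, in 14, and KLF4 and the growth factor gene FGF4 in 12 each. KLF4, a factor used for reprogramming, fell from 112 ± 45.7 CPM to 14.0 ± 1.69 CPM at day 8 of N2B27 (adjusted p = 1.16e-08), but in E8 it was 61.4 ± 4.88 CPM, 0.87 below naive and short of a call. GBX2, a homeobox gene of the mouse naive network, was higher in 15, from 0.634 ± 0.331 CPM to 21.85 ± 3.05 CPM at day 2 of N2B27. NR0B1, which encodes the nuclear receptor DAX1, had no count in naive libraries and 64 counts in the pair of N2B27 day 8.

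The 6 members did not share a pattern over the 19 groups. Pearson's r of their group mean log2 CPM ran from -0.62 (SPIC with ESRRB) to 0.82 (TFCP2L1 with SPIC), as a description of groups that share a depth and a scaling. Among 11458 genes with a group mean of at least 10 CPM, the profiles most like TFCP2L1 were those of SAMHD1 (0.952), TOR3A (0.946) and PLEKHB2 (0.946). Most like SPIC were EXPH5 (0.982), CCDC69 (0.964) and NPEPPS (0.964), and most like TBX3 were TULP4 (0.905), ATRN (0.885) and SERPINB1 (0.876). TFAP2C was closest to NDUFS6 (0.952), RRS1 (0.923) and TUSC2 (0.919). For the sparse genes, ESRRB was closest to MPZL2 (0.895), HSPA4 (0.865) and ZC3HAV1 (0.856), and ARGFX to CANT1 (0.909), PSENEN (0.905) and MRPL9 (0.894), values that rest on few counts.

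By the GENCODE annotation of GRCh38, TFCP2L1 (ENSG00000115112) lies on chromosome 2 from 121216587 to 121285202 on the minus strand, TFAP2C (ENSG00000087510) on chromosome 20 from 56629306 to 56639283 on the plus strand, and TBX3 (ENSG00000135111) on chromosome 12 from 114670255 to 114684175 on the minus strand. SPIC (ENSG00000166211) lies on chromosome 12 from 101475336 to 101486997 and ARGFX (ENSG00000186103) on chromosome 3 from 121567949 to 121590622, both on the plus strand, and ESRRB carries the identifier ENSG00000119715. The lncRNA TBX3-AS1 covers the 5′ end of TBX3 from 114682292 on the opposite strand, away from the 3′ end where QuantSeq tags arise.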

How the data were processed

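Counts were read as the authors deposited them, 1 table of whole-number counts per gene for 38 QuantSeq 3′ mRNA-seq libraries of Shef6 cells on the genome build hg38. Per the labels' processing notes the tools were FastQC 0.11.9, STAR 2.7.10a, Salmon 1.9.0 and DESeq2, and the study's methods name a standard RNA-seq pipeline. Whether counting used strand is not given in the sources used here. Library totals were 3038046 to 5612354 counts, and 0 columns of other series were present.

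Genes were filtered with filterByExpr, which kept 16674 of 57133 genes and 99.65% of counts, and scaled by TMM. The quasi-likelihood F-test of edgeR 4.0.16 (R 4.3.3) was used with Benjamini-Hochberg adjustment over all genes tested. A call needed an adjusted p under 0.05 and an absolute log2 fold change over 1. Comparisons with naive cells were fitted with 16 levels (6 naive libraries and the 4 N2B27 day 4 libraries each pooled), and all others with 19 groups. The course of E8 against N2B27 and the difference of the day 4 effect between experiments were called on the adjusted p alone, and the latter was added after the data were seen, as were the TFAP2C range, the ESRRB ratio and the ARGFX bound with other naive libraries. A group without counts was set at a floor of 3 counts. Exact intervals of 95% on summed counts cover counting error only. CPM and fitted log2 fold changes were computed here from the deposited counts. For levels used in the likeness measure a prior count of 2 was added.

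The members, the lists of relatives, network genes and markers, and the tests were chosen with earlier results of these data known. A marker of the primitive endoderm list is not reported here. Relatives were named where they passed the filter, were called against naive in at least 1 comparison and reached a group mean of 5 CPM. Of the network list the 6 genes with the largest fold change at N2B27 day 8 were named, and for each member the 3 genes with the highest Pearson's r among genes reaching a group mean of 10 CPM. Alternatives were other scalings (RLE and plain totals), a looser filter or none, DESeq2 1.42.0, other choices of naive libraries, experiment as a covariate, a replicate block, a fit to the Ex1 libraries alone and leaving out each library. The fitting steps were also run on simulated counts of 1 comparison, E8 against N2B27 at day 8, and the outcome is not given here. Positions came from GENCODE on GRCh38 and promoter windows from RefSeq on GRCh38.p14, where motifs were searched on both strands. Figures were drawn with matplotlib 3.10.9.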

Additional observations from a re-analysis of the deposited data

Results flagged for a closer look

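In a group of 4 libraries, or of 6, a library was marked when its gap to the nearest other exceeded Dixon's critical value for that size. Of 12 groups tested 3 were marked, where chance marks about 1 in 20. TFCP2L1 was 111.8 CPM in N2B27 day 4 Ex1 replicate 1, above the other 3 libraries of that medium and day, which lay between 107.6 and 108.0 CPM. TFAP2C was 321.4 CPM in naive serum Ex1 replicate 1, below the other 5 naive libraries at 426.8 CPM or more. ESRRB was 0.898 CPM in naive Geltrex Ex1 replicate 1, on 4 counts, where the other 5 naive libraries held 1 count in all. The first of these is a difference of a few CPM between libraries that agree closely.

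Some effects differed between groups of libraries under the same contrast. The course over days 2, 3, 4, 6 and 8 differed between E8 and N2B27 for TBX3 (adjusted p = 4.61e-07, interaction test) and for TFAP2C (adjusted p = 0.0192). For TBX3 the difference was greatest at day 8, where E8 lay 2.25 below N2B27 on the log2 scale, and for TFAP2C E8 was lower by 0.41 at day 2 and higher by 0.36 at day 6. The effect of N2B27 at day 4 on TBX3 differed between the experiments by 0.832 on the log2 scale (adjusted p = 0.0199), with the smaller loss in Ex2, whose naive libraries held 72.4 and 68.3 CPM where those of Ex1 held 122.7 CPM or more.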

How the results depend on the processing

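Against naive cells, 56 calls became 47 with the Ex1 Geltrex naive libraries alone, 59 with the serum ones, 58 with those of the same experiment, 58 on plain totals, 55 under DESeq2, 57 without a filter, and 54 to 58 when 1 library was left out. By comparison, N2B27 day 4 had 2 calls in place of 4 when Ex2 was taken alone. E8 day 2 had 4 in place of 2 on plain totals, where TFCP2L1 was -1.004 and TFAP2C -1.13. That scaling shifted the median of all genes by -0.14 there and by -0.03 to 0.08 at the other levels. E8 day 3 had 2 in place of 4 with the Ex1 Geltrex naive libraries alone and 2 to 4 on leaving out a library (2 without E8 day 3 replicate 2), and mTeSR day 6 had 2 to 4 (2 without mTeSR day 6 replicate 2). TBX3 at day 8 of N2B27 changed sign, to -0.024 (adjusted p = 0.917), with the serum naive libraries alone. Neither value was past the threshold. The cause of these changes was not tested.

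Between media, 5 calls became 2 under DESeq2, which gave no adjusted p for 2 of the other 3, 6 on plain totals, 4 in the fit to the Ex1 libraries alone, and 4 to 6 on leaving out a library. Between days, 2 became 1 without a filter, 1 under DESeq2, 3 on plain totals, where TFAP2C from day 2 to 3 of E8 was 1.01, and 1 to 3 on leaving out a library. DESeq2 gave no adjusted p for ARGFX in E8 against N2B27 at day 3, for ARGFX from day 4 to 6 of N2B27 or for ESRRB in mTeSR against E8 at day 8. Between coatings and experiments 0 became 0 to 1, with the SPIC call without naive Geltrex Ex2 replicate 1. The E8 against N2B27 course, with 2 members, gave 1 to 3 on leaving out a library, losing TFAP2C without E8 day 2 replicate 2 and gaining TFCP2L1 without E8 day 3 replicate 1 or 2. XAV and FAX kept 0 calls on leaving out each library. Among single values of named genes, 24 other settings and 37 omissions of a library lost a call, and 14 and 11 gained one.

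Groups share replicate numbers. Over 171 pairs of groups the same-numbered libraries deviated together with a correlation of -0.35 to 0.258 (median 0.003, 7 over 0.1). No common pairing by number was seen, although a weak pairing, or a pairing in some groups only, could be missed. With the replicate block, the counts of calls were 56 against naive, 5 between media, 2 between days, 0 in XAV and FAX, 0 between coatings and experiments and 2 in the course. Depth limits SPIC from day 2 on, and ESRRB and ARGFX throughout, where a single count was worth 0.17 to 0.35 CPM.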
